A study of Mus musculus with 6 samples.

Results

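The genes examined were 9 transcripts that mark Langerhans cells and dendritic cells: Cd207, Epcam, Itgax, Flt3, Zbtb46, Xcr1, Batf3, Cd209a and Ccr7. They were taken as a fixed list, by symbol, from a deposited table of 33184 genes, and all 9 were found. The values came from RNA-seq of skin wound tissues of db/db mice, a diabetic line that lacks a working leptin receptor. Dorsal wounds of 6 mm were made through the whole skin, siRNA went into the wound margin 1 day after injury (dpi1), and wound tissues were frozen at dpi4. The 3 NC libraries came from wounds given a control siRNA, and the 3 libraries labelled SFRP2-siRNA from wounds given siRNA against Sfrp2, a secreted modulator of wnt signaling. All 6 came from diabetic mice, so no wound of a control strain enters, and age and sex of the animals are not given in the labels. The titles carry day 3 where the protocol says dpi4. Whether each library is 1 animal is not stated, so p-values measure the spread between these libraries, which may be partly technical.

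Langerhans cells are the antigen-presenting cells of the epidermis. They carry langerin, the product of Cd207, and EpCAM, and adhere to keratinocytes through E-cadherin. Dendritic cells of the dermis fall into conventional type 1 cells (cDC1), which depend on Batf3 and carry the chemokine receptor Xcr1, and conventional type 2 cells (cDC2). Monocytes that enter inflamed skin can take on dendritic features, Cd209a among them. On maturation both Langerhans and dendritic cells gain Ccr7, which guides them along lymph vessels to the draining node. None of these genes is fully private to the cell type. Epcam is also made by hair follicle and other epithelial cells, Itgax by macrophages, and Ccr7 by T cells. In bulk tissue, fewer cells of a type and less RNA per cell cannot be told apart.

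The study lists 3 siRNA duplexes against Sfrp2, named SiRNA-1 to SiRNA-3, and the treated libraries carry the same numbers. Neither source states whether a library received 1 duplex or a mix. The NC libraries are numbered 1 to 3 as well, although 1 control duplex is listed, so the numbers may only count replicates. The library SFRP2-siRNA 1 stands apart in most values below, and whether a duplex has a part in this was not tested. The sense strands are given 5′ to 3′, and capitals mark the bases that face bases 2 to 8 of the guide strand.
SiRNA-1: ggauuccgcugGUCAUGAa
SiRNA-2: ccaagaaugagGACGACAa
SiRNA-3: ucaacagagacACCAAGAu
Each matched the transcript Sfrp2-201 of GENCODE vM21 without a mismatch, within coding sequence on the plus strand of GRCm38. SiRNA-1 lies in exon 1 (chr3:83766777-83766795), SiRNA-2 in exon 2 (chr3:83769353-83769371) and SiRNA-3 in exon 3 (chr3:83773151-83773169).

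Levels are FPKM, fragments per kilobase of gene scaled to mapped library size, as deposited. The library totals implied by these values were 42.9 M to 47.1 M reads. Sfrp2 itself had 11.6, 40.6 and 14.1 FPKM in NC 1, 2 and 3, and 50.6, 54.6 and 55.2 FPKM in SFRP2-siRNA 1, 2 and 3. Sfrp2 RNA was thus not lower in the treated libraries, so every direction below is stated for the label. By staining, the study reported less SFRP2 protein in siRNA-treated wounds at dpi3, which is a different measure. Whether a loss of Sfrp2 has a part in any value below was not tested. Some libraries also stood apart before any dendritic gene was considered. Hair follicle genes were nearly absent from SFRP2-siRNA 1, with a summed level of 26.1 FPKM over 13 genes against 2313 to 4628 FPKM in the other 5 libraries. NC 1 was the lowest of the 6 libraries in 46.9% of the genes tested, and its median-of-ratios factor was 0.845 against 0.986 to 1.09. Of the 9 members 4 were lowest in NC 1.

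The 9 genes were compared between the groups to ask whether the treated wounds differed in Langerhans and dendritic cell transcripts. No member passed the threshold, an adjusted p under 0.05 with an absolute log2 fold change above 1. The adjusted p-values ran from 0.523 to 0.919 (limma on log2(FPKM + 1), Benjamini-Hochberg adjustment, with Flt3 and Xcr1 from the fit without a filter on low levels). At an unadjusted p under 0.05 there were 0 members with limma and 0 with voom. Over the whole table limma called 0 of 16005 genes, 0% of those tested, at the adjusted threshold. It gave 1533 genes, 9.58%, at an unadjusted p under 0.05, of which 1075 were higher and 458 lower in the SFRP2-siRNA-labelled group. With median-of-ratios scaling that split was 438 higher and 747 lower. The study, with the count model DESeq2 at the same thresholds, did report differing genes in wound tissues at dpi4, more of them lower than higher. Why the results of the models differ was not tested. The groups overlapped for every one of the 9 members, while they did not overlap for 17.8% of all genes tested.

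The log2 fold change was above 0 for 7 members and below 0 for Epcam and Zbtb46. Its median over the 9 members was 0.20, against 0.13 over all genes tested, of which 71.8% were above 0. These are unlike sets, since the 9 include Flt3 and Xcr1, which lay under the filter on low levels. Without that filter the all-gene median was 0.027. Relative to the median of 0.13, 6 members were higher and 3 were lower. Most members were highest in the same library, which was not particular to them. SFRP2-siRNA 1 had the highest value of the 6 libraries for 8 of the 9 members, and the lowest for Epcam. It was the highest library for 27.9% of all genes tested and the lowest for 14.3%. Of the lists compared below, it was highest for 12 of 13 macrophage and monocyte genes and 9 of 12 Langerhans cell support genes. It was also highest for 8 of 13 genes of cDC2 and monocyte-derived cells. By contrast it was highest for 0 of 13 hair follicle genes and 0 of 12 claudin and simple epithelium genes. Without SFRP2-siRNA 1 the median of the members was 0.076, with 6 log2 fold changes above 0, against 0.15 over all genes tested. Without NC 3 it was 0.13, against 0.18 over all genes tested. It was 0.32 without SFRP2-siRNA 3, against 0.10, and 0.11 with median-of-ratios scaling, against 0.0046. The members thus lay above the all-gene median in some settings and below it in others.

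**Figure D1:**
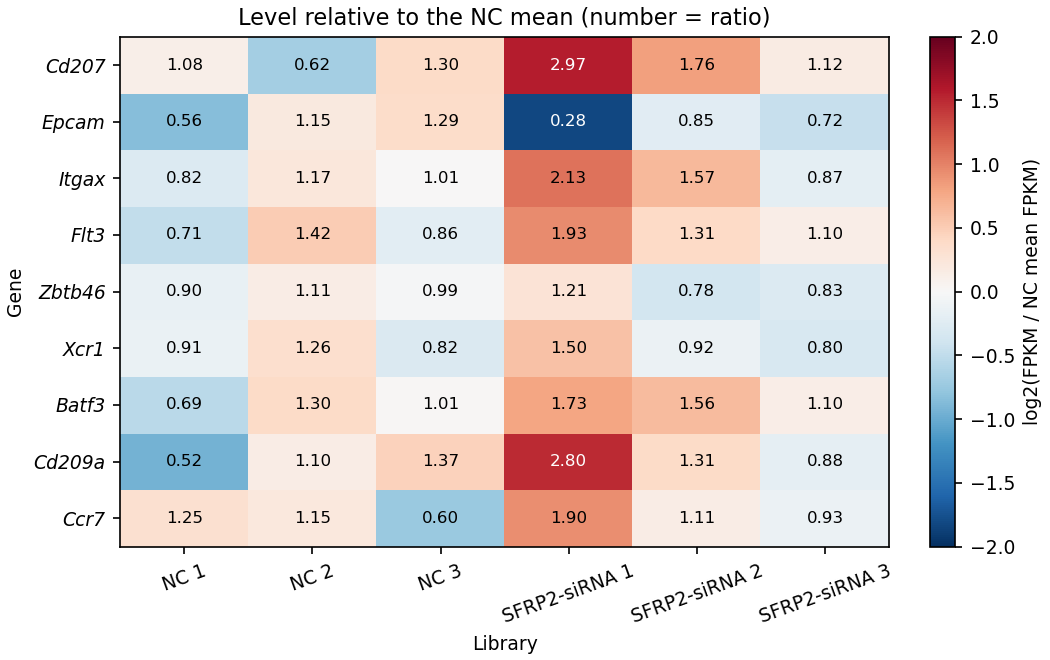
Level of each of the 9 genes in each library divided by the mean of the 3 NC libraries, printed as a ratio and coloured on a log2 scale. The column of SFRP2-siRNA 1 holds the highest ratio of 8 genes, from 1.21 for Zbtb46 to 2.97 for Cd207, and the lowest ratio of Epcam, 0.28.

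The levels of the 9 genes spanned a wide range. Epcam was the most abundant, with a mean of 31.2 FPKM over the 6 libraries, and exceeded Cd209a, the next gene, in 6 of 6 libraries. Cd209a had 3.43 FPKM and Itgax 2.55, and Cd209a was the higher of the pair in 5 libraries. Below them came Cd207 with 1.63 FPKM, Ccr7 with 1.13, Zbtb46 with 1.07 and Batf3 with 0.863. The order among neighbours here was loose: Cd207 exceeded Ccr7 in 4 of 6 libraries and Ccr7 exceeded Zbtb46 in 3 of 6. Flt3, with 0.410 FPKM, and Xcr1, with 0.173, lay lowest, and Flt3 exceeded Xcr1 in 6 of 6. These 2 genes fell under the filter of a mean of 0.5 FPKM, so 7 of the 9 members entered the test across all genes. For Flt3 and Xcr1 the fit without a filter is given.

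**Figure D2:**
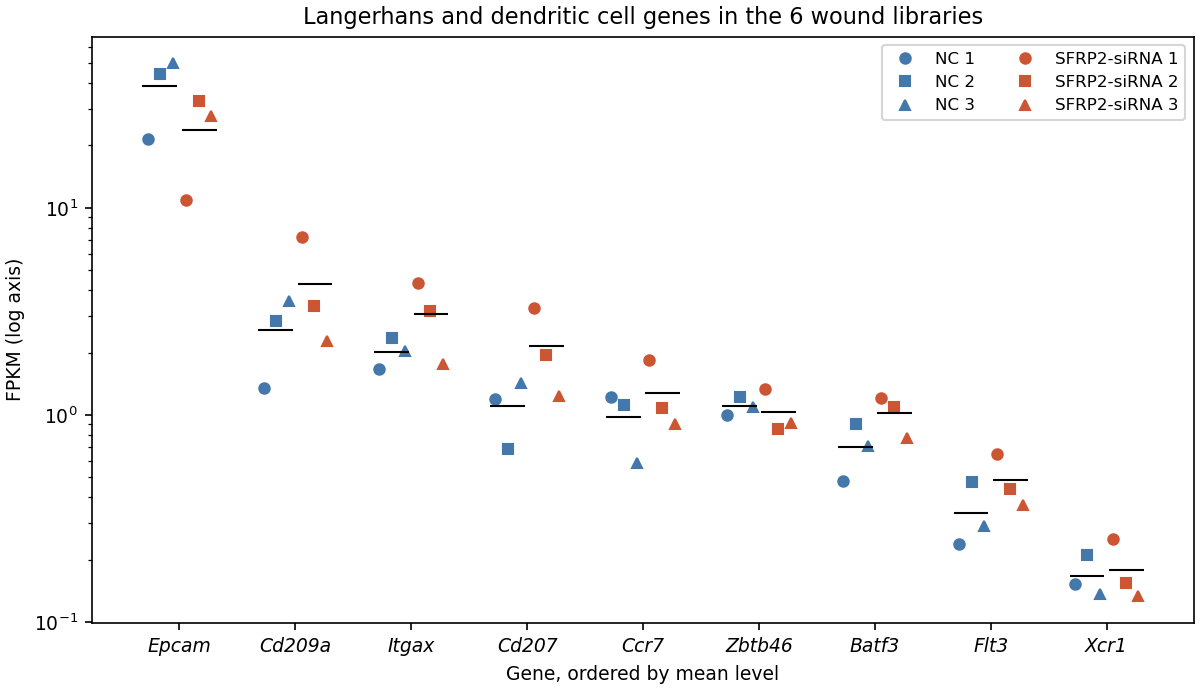
FPKM of the 9 genes on a log axis, 1 point per library, with NC in blue, the SFRP2-siRNA-labelled group in orange and black bars at the group means. Epcam is the highest gene in each of the 6 libraries, and the points of the groups overlap for each gene.

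The Langerhans cell genes were examined first. Cd207 (ENSMUSG00000034783) encodes langerin, the lectin that forms Birbeck granules, and its protein was stained in the study as a mark of tissue-resident macrophages. The study reported that the siRNA did not change the ratio of these stained cells, at dpi4 or later. RNA of whole tissue is a different measure from that ratio. The Cd207 transcript had 1.19, 0.687 and 1.43 FPKM in NC 1, 2 and 3, and 3.28, 1.94 and 1.24 FPKM in SFRP2-siRNA 1, 2 and 3. SFRP2-siRNA 1 and 2 lay above all NC libraries, and SFRP2-siRNA 3 lay between NC 1 and NC 3. Group means came to 1.104 ± 0.381 and 2.15 ± 1.03 FPKM (SD, n = 3 each), a ratio of 1.95. The log2 fold change was 0.55 (SE 0.26), with an unadjusted limma p of 0.0734, an adjusted p of 0.523 and an exact permutation p of 0.2. The smallest p that this permutation test allows with 3 against 3 libraries is 0.1. Without SFRP2-siRNA 1 the log2 fold change was 0.30. These values rest on 49 to 214 reads per library. On recovered reads, where low levels are not compressed by the added 1, voom gave a log2 fold change of 0.91 (SE 0.45, adjusted p 0.527).

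Epcam (ENSMUSG00000045394) encodes an adhesion molecule shared by Langerhans cells and follicular epithelium. Its level was 21.4, 44.3 and 49.8 FPKM in NC 1, 2 and 3, and 10.9, 32.8 and 27.9 FPKM in SFRP2-siRNA 1, 2 and 3. The lowest value was that of SFRP2-siRNA 1, where Cd207 was highest, and NC 1 was the lowest NC library. Group means were 38.5 ± 15.02 and 23.9 ± 11.5 FPKM (SD, n = 3 each), with a log2 fold change of -0.72 (SE 0.47), an adjusted limma p of 0.566 and an exact permutation p of 0.3. With SFRP2-siRNA 1 left out it was -0.25. Each treated library was lower than the NC library of the same number, and with the replicate number as a block the unadjusted p was 0.0073 and the adjusted p 0.345, although the numbers were not found to pair the libraries.

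The promoters of these 2 genes are shown because a Langerhans cell gene and an epithelial gene can be compared by their letters. Their log2 fold changes had opposite signs, but neither gene passed the adjusted threshold and the groups overlapped for both. Whether the letters bear on these signs was not tested. The sequences run from 250 bases before the RefSeq start to 50 after it, 5′ to 3′ on the gene's strand, in GRCm38.p6. Capitals mark matches, on either strand, to GAGGAA (the core bound by PU.1), TGANTCA (the AP-1 element that Batf3 binds with Jun proteins) and GGGCGG (the GC box).
Cd207, chr6:83677808-83678107, minus strand: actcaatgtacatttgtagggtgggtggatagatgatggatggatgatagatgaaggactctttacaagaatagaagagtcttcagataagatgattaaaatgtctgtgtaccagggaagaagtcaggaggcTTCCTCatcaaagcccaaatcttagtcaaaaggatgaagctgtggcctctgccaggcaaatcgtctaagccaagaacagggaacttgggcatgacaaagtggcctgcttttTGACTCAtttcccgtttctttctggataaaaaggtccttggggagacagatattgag
Epcam, chr17:87635729-87636028, plus strand: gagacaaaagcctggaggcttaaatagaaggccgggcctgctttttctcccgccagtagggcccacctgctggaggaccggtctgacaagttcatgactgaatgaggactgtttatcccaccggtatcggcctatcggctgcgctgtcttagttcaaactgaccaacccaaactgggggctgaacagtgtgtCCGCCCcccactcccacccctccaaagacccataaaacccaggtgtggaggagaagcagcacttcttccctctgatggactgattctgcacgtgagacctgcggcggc
The Cd207 window held 1 GAGGAA match, in reverse orientation from position -118, and 1 TGANTCA match from position -7. The Epcam window held 1 GGGCGG match, in reverse orientation from position -58, and no match of the other motifs. A promoter was given for 8 members, all but Ccr7. GAGGAA was found in 2 of them (Batf3 and Cd207) and in 28.3% of all 32851 promoter windows, TGANTCA in 3 (Cd207, Itgax and Zbtb46) and in 7.81%, and GGGCGG in 2 (Batf3 and Epcam) and in 35.7%. A match is only a stretch of letters and not a measured binding site.

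The pattern of each Langerhans cell gene over the 6 libraries was set beside those of all genes tested, as a description without a test. The highest Pearson correlations with Cd207 were those of Cst7 (0.995), Lgals3 (0.989), Snord71 (0.987), Tmem189 (0.987) and AC151284.2 (0.985). Cst7 encodes cystatin F, an inhibitor of lysosomal proteases in immune cells, and had 1.63 FPKM in SFRP2-siRNA 1 and 0.563 to 1.10 in the other 5 libraries. Lgals3, which encodes galectin-3, had 298 FPKM there and 170 to 241 FPKM elsewhere. For Epcam the highest were Slc45a3 (0.998), Ildr1 (0.997), Sox9 (0.996), Cgn (0.995) and Lmtk2 (0.994). Sox9 is a regulator of hair follicle stem cells and Cgn encodes cingulin of the tight junction. Sox9 had 2.34 FPKM in SFRP2-siRNA 1 and 6.14 to 14.98 FPKM in the others. These correlations share the same 6 libraries, of which SFRP2-siRNA 1 lies far from the rest for both genes.

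Among the genes of dendritic cells in general, Itgax (ENSMUSG00000030789) encodes CD11c, an integrin chain also found on macrophages. Its levels were 1.67, 2.36 and 2.04 FPKM in NC 1, 2 and 3, and 4.31, 3.18 and 1.76 FPKM in SFRP2-siRNA 1, 2 and 3. As for Cd207, SFRP2-siRNA 1 and 2 exceeded all NC libraries and SFRP2-siRNA 3 did not. The means of 2.02 ± 0.347 and 3.08 ± 1.28 FPKM (SD, n = 3 each) gave a log2 fold change of 0.39 (SE 0.25, adjusted limma p 0.559). Without SFRP2-siRNA 1 it was 0.18, and without SFRP2-siRNA 3 it was 0.65.

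Flt3 (ENSMUSG00000042817) encodes the receptor for the growth factor that drives dendritic cell development. It had 0.239, 0.477 and 0.290 FPKM in NC and 0.645, 0.440 and 0.368 FPKM in the SFRP2-siRNA-labelled group, on 65 to 171 reads. NC 2 exceeded SFRP2-siRNA 2 and 3. The log2 fold change was 0.15 (SE 0.11) on the log2(FPKM + 1) scale and 0.54 (SE 0.36) with voom on the reads.

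Zbtb46 (ENSMUSG00000027583), a transcription factor of conventional dendritic cells that is also made by endothelial cells, varied least among the 9. It had 0.996, 1.22 and 1.09 FPKM in NC and 1.34, 0.859 and 0.916 FPKM in the SFRP2-siRNA-labelled group. The first treated library was above all NC libraries and the other treated libraries were below them all. On average NC had 1.102 ± 0.113 and treated wounds 1.04 ± 0.261 FPKM (SD, n = 3 each), with a log2 fold change of -0.052 (SE 0.13) and an exact permutation p of 0.7. Without SFRP2-siRNA 2 its sign turned, to 0.011, and without SFRP2-siRNA 1 it was -0.15.

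The cDC1 genes came next. Xcr1 (ENSMUSG00000060509), the receptor of the chemokine XCL1, had 0.153, 0.211 and 0.137 FPKM in NC and 0.251, 0.154 and 0.133 FPKM in the SFRP2-siRNA-labelled group. This was 28 to 48 reads per library, the least of the members. The ratio of the group means was 1.07, and voom on the reads gave a log2 fold change of 0.063 (SE 0.40). On the log2(FPKM + 1) scale it was 0.015 (SE 0.051), and it was -0.029 without SFRP2-siRNA 1 and -0.0087 with median-of-ratios scaling. Batf3 (ENSMUSG00000026630), the factor needed for cDC1 development and also made by activated T cells, had 0.483, 0.909 and 0.711 FPKM in NC. In the SFRP2-siRNA-labelled group it had 1.21, 1.09 and 0.771 FPKM, and SFRP2-siRNA 3 alone lay within the NC range. Averages of 0.701 ± 0.213 and 1.02 ± 0.228 FPKM (SD, n = 3 each), a ratio of 1.46, went with a log2 fold change of 0.25 (SE 0.15) and an adjusted limma p of 0.542. With the first treated library left out it was 0.19.

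Cd209a (ENSMUSG00000031494) encodes a mouse relative of DC-SIGN, a lectin of cDC2 and monocyte-derived dendritic cells. It had 1.35, 2.84 and 3.54 FPKM in NC 1, 2 and 3, and 7.23, 3.37 and 2.27 FPKM in SFRP2-siRNA 1, 2 and 3. Only SFRP2-siRNA 1 lay outside the NC range, at 2.80 times the NC mean. The group means of 2.58 ± 1.12 and 4.29 ± 2.60 FPKM (SD, n = 3 each) gave a log2 fold change of 0.51 (SE 0.39, adjusted limma p 0.594), and this was 0.13 without SFRP2-siRNA 1. Cd209a belongs to a cluster of similar genes, and how reads shared among them were assigned is not stated, so its level carries that uncertainty.

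Ccr7 (ENSMUSG00000037944), the receptor for the lymph node chemokines CCL19 and CCL21, had 1.21, 1.12 and 0.585 FPKM in NC. It had 1.85, 1.08 and 0.901 FPKM in the SFRP2-siRNA-labelled group. Again SFRP2-siRNA 1 was alone above the NC range. The log2 fold change was 0.20 (SE 0.20, adjusted limma p 0.663), and without SFRP2-siRNA 1 it was 0.027.

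**Figure D3:**
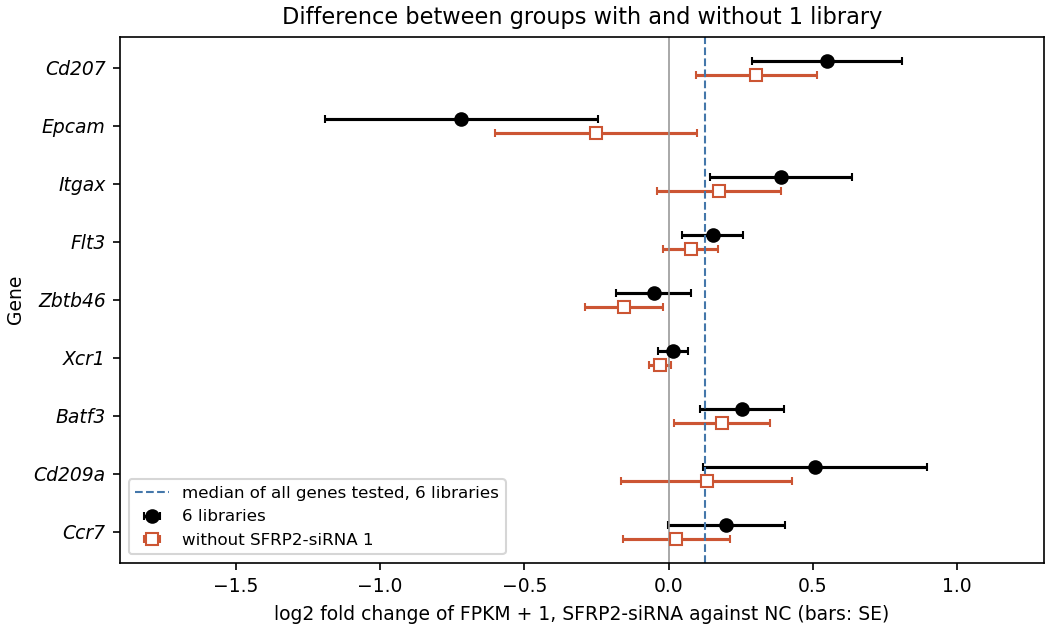
Log2 fold change of each gene on the log2(FPKM + 1) scale with its SE, from all 6 libraries (black) and without SFRP2-siRNA 1 (orange). The dashed line is the all-gene median of 0.13 from all 6 libraries, which was 0.15 without SFRP2-siRNA 1. Cd209a moves from 0.51 to 0.13 and Epcam from -0.72 to -0.25 when that library is left out.

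Further genes linked to these cells were then compared by fixed lists. Other cells make some of them too, as for Csf1r and Clec10a below, so a value is not that of dendritic cells alone. The part of other cells in these values was not tested. No gene of any list below passed the adjusted threshold with limma, and the counts that follow are at an unadjusted p under 0.05, for which the background is 6.72% higher and 2.86% lower. Over all genes tested the groups did not overlap for 13.9% in the higher and 3.92% in the lower direction. Among 12 genes that support Langerhans cells, all tested, 9 had a log2 fold change above 0, 4 were higher at an unadjusted p under 0.05 and 2 did not overlap. Runx3, a transcription factor that Langerhans cells require, had 1.07 ± 0.23 FPKM in NC and 1.68 ± 0.15 in the SFRP2-siRNA-labelled group (SD, n = 3 each). Csf1r, the receptor for IL-34 and CSF1 and also a macrophage gene, had 32.5 ± 11.2 and 51.4 ± 8.38 FPKM.

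Of 12 further cDC1 genes 10 were tested, 9 had a log2 fold change above 0, 2 were higher at an unadjusted p under 0.05 and 1 did not overlap. That gene was Id2, a factor of cDC1 and Langerhans cell development, with 16.5 ± 2.06 and 23.5 ± 0.919 FPKM (SD, n = 3 each). Irf8, which acts with Batf3, had 3.55 ± 1.60 and 5.67 ± 1.01 FPKM, with overlap. The 13 genes of cDC2 and monocyte-derived cells had a median log2 fold change of 0.56, and 0.38 without SFRP2-siRNA 1. Of 12 tested 9 were above 0 and 3 below, 4 were higher at an unadjusted p under 0.05 and 6 did not overlap. Clec10a, a lectin of dermal cDC2 and of macrophages, had 27.1, 48.5 and 49.4 FPKM in NC and 92.8, 64.7 and 83.0 FPKM in the SFRP2-siRNA-labelled group. All treated libraries lay above all NC libraries, with a log2 fold change of 0.96 (SE 0.27) that was 0.85 without SFRP2-siRNA 1. Cd209b, a neighbour of Cd209a in the same family, had 6.97 ± 1.89 and 13.9 ± 4.49 FPKM, again without overlap, and a log2 fold change of 0.89 (SE 0.28).

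Genes of mature and migrating dendritic cells were compared beside Ccr7. Of 23 genes 19 were tested and 17 had a log2 fold change above 0, with a median of 0.26 over the list (0.16 without SFRP2-siRNA 1 and 0.13 with median-of-ratios scaling), but 1 was higher at an unadjusted p under 0.05. The costimulatory ligands Cd80 and Cd86 had log2 fold changes of 0.63 (SE 0.26) and 0.51 (SE 0.21), and the groups overlapped for both. Growth factors and trafficking genes numbered 15, of which 11 were tested, 10 were above 0 and 2 were higher at an unadjusted p under 0.05. Ccl21a, a ligand of Ccr7, had 6.07, 6.38 and 11.9 FPKM in NC and 24.2, 16.3 and 17.7 FPKM in the SFRP2-siRNA-labelled group. The ligand thus did not overlap between the groups while its receptor did. The log2 fold change of Ccl21a was 1.20 (SE 0.27) with an unadjusted limma p of 0.00341 and an adjusted p of 0.518, and it was 1.04 without SFRP2-siRNA 1. Mouse Ccl21 genes occur as near-identical copies, so the value for 1 copy is uncertain. Ccr2, the receptor by which monocytes enter tissue, had 4.44 ± 2.88 and 10.003 ± 4.83 FPKM, with overlap.

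Only 3 of 8 plasmacytoid dendritic cell genes could be tested, and 1 of them, Tlr7, was higher at an unadjusted p under 0.05, with 3.22 ± 1.46 and 5.58 ± 0.856 FPKM. For antigen presentation by MHC class II, 8 of 10 genes were tested, all 8 had a log2 fold change above 0 and 1 did not overlap. This was Ctss, a protease that frees class II molecules of their invariant chain, with 193 ± 80.1 and 390 ± 96.0 FPKM. The median over that list was 0.41, and it was 0.71 without SFRP2-siRNA 3 and 0.27 with median-of-ratios scaling.

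Markers of the other cells a wound holds were set beside the members. All 13 macrophage and monocyte genes had a log2 fold change above 0, with a median of 0.80 (0.50 with sample weights), and 9 were higher at an unadjusted p under 0.05. Their summed level was 1090 to 1755 FPKM in NC and 1957 to 2630 FPKM in the SFRP2-siRNA-labelled group, highest in SFRP2-siRNA 1. Itgam (CD11b) levels were 5.36, 7.12 and 3.996 FPKM in NC and 17.8, 11.1 and 7.35 FPKM in the treated libraries, the same order of treated libraries as Itgax and Cd209a. The part of these cells in the values of Itgax, Cd209a and Cd207 was not tested. T cell genes had a median of 0.094, which was 0.047 without SFRP2-siRNA 1, 0.035 with median-of-ratios scaling and 0.22 with voom. Of the 7 tested 4 were above 0, and the list had a summed level of 14.9 to 17.9 FPKM in NC and 14.5 to 22.1 FPKM in the treated libraries. Tcrg-C1, a gamma delta T cell receptor gene, and Cd3g did not overlap, with 0.702 ± 0.124 and 1.67 ± 0.256 FPKM for the former. B cell genes had a median of 0.034 with 2 of 5 tested, and NK cell genes 0.0070 with 1 of 5 tested. These low-level genes are compressed by the added 1: with a pseudocount of 0.1 the medians were 0.21 for B cell and 0.14 for NK cell genes, and with voom on recovered reads they were 0.46 and 0.57. The NK cell median was -0.047 without NC 1. No gene of the 15 comparison lists was listed at 0 in every library.

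Epithelial genes were set beside Epcam. Among 12 claudin and simple epithelium genes, 11 were lowest in SFRP2-siRNA 1. Their summed level was 96.5 FPKM in that library, 256 and 263 FPKM in the other treated libraries and 208 to 330 FPKM in NC. All 13 hair follicle genes were lowest in SFRP2-siRNA 1, and their median log2 fold change was -1.03 with it and 0.41 without it. Epidermal keratinocyte genes were mixed in that library, with 2 of 9 lowest there and 2 highest. Their median log2 fold change was -0.095, and 0.090 without SFRP2-siRNA 1. Krt10 of the upper layers had 271, 714 and 222 FPKM in SFRP2-siRNA 1, 2 and 3, and 501 to 785 FPKM in NC. Krt14 of the basal layer had 3930 FPKM in SFRP2-siRNA 1, the highest of the 6 libraries, and the summed level of the list, to which abundant keratins give most, was 6890 FPKM there against 3681 to 6691 FPKM in the others. Of 8 sebaceous gland genes 5 had a log2 fold change above 0 and 3 below, with a median of 0.10. Only 1 gene, Scd1, was lower without overlap, while Soat1 and Awat2 had log2 fold changes of 0.43 and 0.39, with overlap. The sign of that median turned to -0.11 without SFRP2-siRNA 1, -0.016 without NC 1, -0.048 with median-of-ratios scaling and -0.14 with sample weights. What part the low follicle signal of SFRP2-siRNA 1 has in the Epcam value was not tested.

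**Figure D4:**
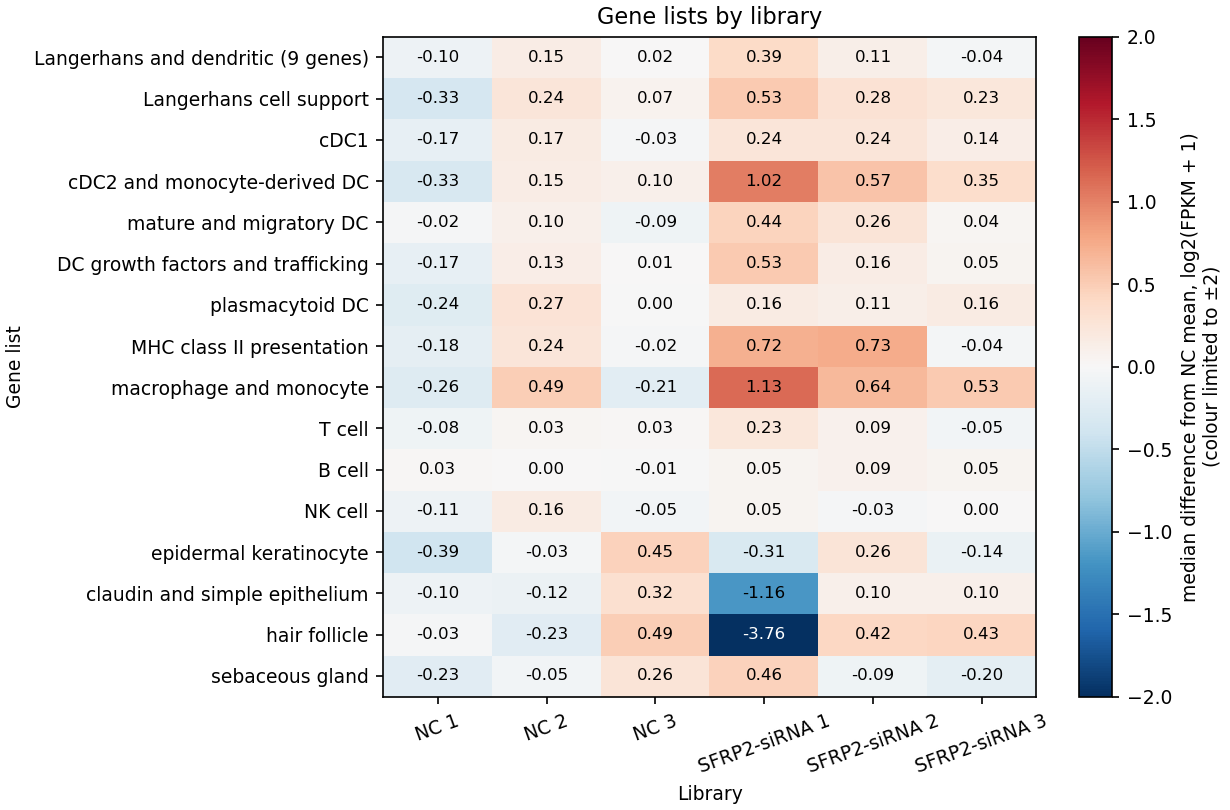
Median over the genes of each list of the difference from the NC mean on the log2(FPKM + 1) scale, by library, for the 9 genes and 15 comparison lists. SFRP2-siRNA 1 reaches 0.39 for the 9 genes, 1.02 for the cDC2 list and 1.13 for the macrophage list, and -3.76 for hair follicle genes.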

How the data were processed

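Transcripts were measured by paired-end mRNA sequencing of 6 wound libraries, 3 from NC and 3 with the SFRP2-siRNA label. The authors deposited 1 table of FPKM values. Per the labels, HISAT2, featureCounts and Subread were used; versions, genome build and annotation are not given in the sources used here. The study names a count model for its own tests, which FPKM cannot enter, so its thresholds were used with limma 3.58.1 (lmFit and eBayes with intensity trend, two-sided) in R 4.3.3 on log2(FPKM + 1), with Benjamini-Hochberg adjustment over the 16005 genes that averaged 0.5 FPKM or more. Fold changes on that scale understate the change of low genes. Symbols were matched for 32582 of 33184 gene IDs.

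FPKM values times the GENCODE vM21 exon length were whole multiples of 1 read (within 0.02 of a read) in all 6 libraries for 96.5% of genes. These recovered reads gave the library totals and the reads behind each value, and were tested by limma voom as an alternative added after the data were seen.

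On simulated data with 200 of 15558 genes changed by 2 on the log2 scale, limma recovered 86.6% of them, with a mean of 11.4 false calls. The changed genes were drawn from those with a mean of at least 2 FPKM. Noise was simulated for each gene alone, without differences that many genes of a library share. The changes of the members were smaller and most members lay under that level, so this share does not carry over to them. Libraries of a group differed beyond sampling noise. Replicate numbers were checked for pairing by the correlation of deviations from group means, which was -0.047, -0.15 and 0.38 for numbers 1, 2 and 3, so the libraries were not taken as paired. Genes named were the 9 members, Sfrp2, up to 3 genes with the smallest unadjusted p in each of 15 comparison lists, and the 5 genes most correlated with Cd207 and with Epcam. The members and lists were chosen with earlier results of these data known. Promoters came from RefSeq (GRCm38.p6) and siRNA sequences from the study's supplement.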

Additional observations from a re-analysis of the deposited data

How the results depend on the processing

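No alternative brought a gene of the whole table, a member or a gene of a list past the adjusted threshold. The count at an unadjusted p under 0.05 ran from 887 to 1970 over the fits that each left out 1 library, lowest without NC 1, and it was 948 without SFRP2-siRNA 2. The median of the 9 members was 0.43 with a pseudocount of 0.1 and 0.52 with voom on the recovered reads, since both widen the changes of low genes. Over all genes tested the median was 0.16 in each of these settings. With the filter at 2 FPKM only Itgax, Cd209a and Epcam remained, so no median was computed. Of 156 fits of single members 149 kept their direction and 7 reversed, 6 of them for Xcr1. Part of this agreement was fixed in advance. The other filters, the fit without an intensity trend and the replicate block leave each fold change as it was. For Xcr1, median-of-ratios scaling gave -0.0087, quantile normalization -0.0066, sample weights -0.0049, and voom after median-of-ratios scaling -0.098. Leaving out 1 library at a time gave -0.029 to 0.043 for Xcr1 and -0.15 to 0.011 for Zbtb46. At an unadjusted p under 0.05, Cd207 was higher after rescaling to equal sums, with sample weights and without SFRP2-siRNA 3, Itgax without SFRP2-siRNA 3, and Epcam lower with the block.

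When the replicate number was a block, 0 genes were called and 1929 had an unadjusted p under 0.05. The median of the members stayed at 0.20, which this block cannot change, since every number occurs in both groups. The replicate block changed no call. Among the other named genes 12 of 749 fits reversed, in 4 genes, with the settings that cannot reverse again counted. For Cd79b, median-of-ratios scaling gave -0.063, rescaling without the most abundant genes -0.028, quantile normalization -0.066, sample weights -0.071, voom after median-of-ratios scaling -0.10, and the fits without 1 library -0.028 to 0.13. Krt1 was 0.22 with sample weights. Over the fits without 1 library Krt1 ran from -0.87 to 0.14, Krt14 from -0.030 to 0.61 and Krt27 from -3.55 to 0.091. The median of claudin and simple epithelium genes was -0.27, and 0.083 without SFRP2-siRNA 1, and that of epidermal keratinocyte genes was 0.13 without NC 3. The median of dendritic growth factors and trafficking genes was 0.32, and 0.15 without SFRP2-siRNA 1. The causes were not tested.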
